A study of Rattus norvegicus with 9 samples.

Results

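The AP-1 and immediate early genes were followed in rat oligodendrocyte precursor cell (OPC) cultures kept with or without bavisant. The 10 genes, chosen by symbol, are Fos, Fosb, Fosl1, Fosl2, Jun, Junb, Jund, Egr1, Egr2 and Nr4a1. For each symbol the row with the most reads was taken, and all 10 were found among 32623 gene rows. All 10 also passed the filter on low counts, which left 15321 genes in the tests. OPCs were purified from the brains of wild-type rats and grown for 5 days in differentiation medium with laminin, B27 and N1 supplements, as bulk cultures. One group stayed in basal medium, one received bavisant at 1 µM and one received it at 10 µM. Bavisant is an antagonist of the histamine H3 receptor. The culture protocol writes the lower dose as 1 mM where the treatment label and the design text write 1 µM, and 1 µM is used here. Each group has 3 libraries whose titles carry P11, P13 or P14, so that each P number occurs once per group.

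The labels do not say what a P number marks, nor that libraries came from separate animals or cultures, so the p-values measure the spread between these libraries, which may be technical. The libraries hold 23919373 to 43059921 reads assigned to genes. The basal group averaged 29064359 ± 4819157 reads (SD, n = 3), the 1 µM group 39034899 ± 4130623 and the 10 µM group 38796810 ± 679920. The 3 P11 libraries stand apart from the other 6 on the first principal component, which holds 54.7% of the variance between libraries. Oligodendrocyte markers were high in every library, at a summed 33103 to 50941 TPM (a level scaled by gene length and library), and OPC markers were at 1042 to 1486 TPM. Markers of other cells were also present, among them microglia and macrophages at 853 to 1309 TPM and astrocytes at 1374 to 2426 TPM. In RNA from whole cultures, fewer cells of a type and less RNA per cell cannot be told apart.

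AP-1 is a transcription factor made of 2 proteins that pair through a leucine zipper, usually one of the Fos family (Fos, Fosb, Fosl1 and Fosl2) with one of the Jun family (Jun, Junb and Jund). Jun proteins can also pair among themselves, whereas Fos proteins need a partner. Immediate early genes are switched on within minutes of a stimulus without new protein synthesis, as growth factor, calcium or stress signals reach factors already bound at their promoters. Serum response factor binds the CArG box there, and CREB binds the cyclic AMP response element (CRE). Egr1 and Egr2 are zinc finger factors, and Nr4a1 is an orphan nuclear receptor. In peripheral Schwann cells Egr2 drives myelination, whereas central oligodendrocytes use other factors for it.

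Promoter sequence was available for 8 of the 10 genes, as RefSeq windows on the GRCr8 build, and the 250 bases before each start were searched on both strands (for TATAAA, on the strand of the gene). Fos and Jun had no entry in the table used. Stretches of 5 promoters are shown: Egr1 and Egr2 for a motif pair they share, Fosl1 and Junb because they were the 2 members called between the doses, and Nr4a1 for its number of CRE half-sites. Each is printed 5′ to 3′ in the direction of its gene, with capitals for the CArG box, for the CRE half-site TGACG or its reverse complement CGTCA, for the Egr site GCGNGGGCG on either strand, and for TATAAA. The stretches are Egr1 at chr18:26736933-26737026 on the plus strand, Egr2 at chr20:21054493-21054534 on the minus strand, Fosl1 at chr1:212183727-212183815 on the plus strand, Junb at chr19:40080961-40081092 on the plus strand and Nr4a1 at chr7:134259888-134260099 on the plus strand.
Egr1: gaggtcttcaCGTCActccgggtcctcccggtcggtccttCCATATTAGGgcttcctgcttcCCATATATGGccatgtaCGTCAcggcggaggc
Egr2: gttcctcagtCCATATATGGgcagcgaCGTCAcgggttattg
Fosl1: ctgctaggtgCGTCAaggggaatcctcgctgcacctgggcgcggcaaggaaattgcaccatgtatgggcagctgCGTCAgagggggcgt
Junb: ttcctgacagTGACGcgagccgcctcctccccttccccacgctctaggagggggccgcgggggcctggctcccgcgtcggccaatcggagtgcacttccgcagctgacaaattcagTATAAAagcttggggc
Nr4a1: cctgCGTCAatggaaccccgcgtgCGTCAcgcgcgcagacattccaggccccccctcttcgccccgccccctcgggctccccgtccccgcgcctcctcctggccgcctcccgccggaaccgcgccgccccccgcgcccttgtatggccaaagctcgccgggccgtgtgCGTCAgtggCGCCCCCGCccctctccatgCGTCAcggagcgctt

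Of the 8 members matched, Egr1 and Egr2 were those with a CArG box, with 2 and 1 matches, against 1.5% of 33469 rat promoters with any match. The same CArG letters stand 83 to 74 bases before the start in both genes, followed by a CRE half-site 66 to 62 bases before it. CRE half-sites occurred 4 times in Nr4a1, 2 times each in Egr1 and Fosl1, and 1 time each in Egr2 and Junb, where 18.2% of all promoters hold at least 1. Jund holds a full CRE (TGACGTCA, present in 1.59% of promoters), which contains a half-site on each strand, and a further half-site. Egr sites were found 3 times in Jund and 1 time each in Fosl2 and Nr4a1, against 4.29% of promoters. Junb had the only TATAAA read in the direction of the gene, a motif of 8.06% of promoters. No member window held the AP-1 site TGANTCA (6.34% of promoters) or the Nr4a site AAAGGTCA (1.24%), and Fosb had none of the motifs searched. A match shows these letters in the window and says nothing of binding.

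Levels were compared between genes as TPM, which is scaled per length. Jund and Jun led: Jund averaged 142 ± 12.4 TPM and Jun 124 ± 7.35 TPM over the 9 libraries (SD, n = 9), and Jund was above Jun in 8 of 9 libraries. Fos at 29.8 ± 10.5 TPM and Junb at 29.6 ± 5.03 TPM came next, then Egr1 at 17.6 ± 15.5 TPM and Nr4a1 at 16.0 ± 1.79 TPM. The other members were low, with Fosl2 at 2.18 ± 1.45, Fosl1 at 1.28 ± 0.545, Egr2 at 0.646 ± 0.178 and Fosb at 0.624 ± 0.625 TPM. Among neighbours in that order, the ranges over the 9 libraries were apart for Jun above Fos and for Nr4a1 above Fosl2, and overlapped for the other pairs. The order, and sums of TPM over a family, rest on the gene lengths behind the deposited TPM. Reads per TPM relative to Fos ran from 0.383 for Fosl2 to 2.29 for Fosb, with 0.731 for Jund and 1.89 for Jun. Without length scaling Jun was above Jund in every library. The 4 low genes rest on few reads: 12 to 106 per library for Fosb, 19 to 71 for Fosl1, 12 to 43 for Fosl2 and 20 to 57 for Egr2.

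**Figure D1:**
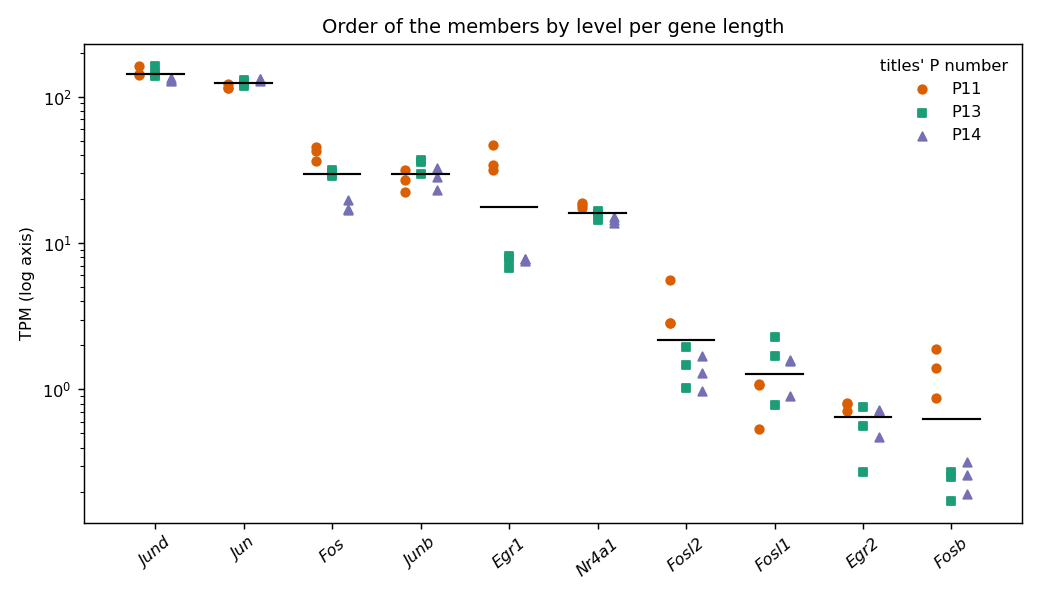
TPM of each gene on a log axis, with 1 point per library, coloured by P number, and a bar at the mean of the 9 libraries. Jund and Jun lie above 100 TPM in every library, Egr1 splits into 3 high P11 points and 6 low ones, and Fosl2, Fosl1, Egr2 and Fosb have the lowest means.

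Summed over each family, Jun transcripts exceeded Fos transcripts by 5.56 to 14.7 times in TPM. Fos alone made up 83.3% to 94.1% of the Fos family's TPM. The lowest of these ratios, 5.56, was in the basal P11 library, where Fos family transcripts reached 50.9 TPM against 31.9 in basal P13 and 23.3 in basal P14.

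All further levels are in CPM, reads scaled to TMM-adjusted library sizes, and differences are log2 fold changes with standard errors from edgeR's quasi-likelihood fit, with p-values adjusted over all 15321 genes by the Benjamini-Hochberg method. Fos, the archetype of the rapidly induced genes, read 36.6, 23.3 and 16.1 CPM in basal P11, P13 and P14. With 1 µM it read 39.5, 24.7 and 13.7 CPM, and with 10 µM 32.7, 28.3 and 14.5 CPM. P11 was highest, P13 intermediate and P14 lowest in each of the 3 groups, and the groups overlapped throughout. Fosb, whose product resembles Fos, read 3.68, 0.486 and 0.353 CPM in basal medium, 2.72, 0.501 and 0.456 CPM with 1 µM, and 1.77, 0.359 and 0.644 CPM with 10 µM. The 3 P11 values were all above the other 6, and within P11 basal was highest and 10 µM lowest, while in P14 the order was the opposite.

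Fosl1, which codes for Fra-1 and lacks the transactivation region of Fos, read 0.984, 1.46 and 1.35 CPM in basal P11, P13 and P14. With 1 µM it read 0.974, 1.97 and 1.34 CPM, and with 10 µM 0.509, 0.744 and 0.805 CPM. All 3 libraries at 10 µM were below all 6 others, so this gene did not overlap between 10 µM and either other group. Fosl2, which codes for Fra-2, read 1.84, 0.454 and 0.530 CPM in basal medium, 0.949, 0.612 and 0.410 CPM with 1 µM, and 0.990, 0.359 and 0.322 CPM with 10 µM. Its P11 values were the 3 highest, and the groups overlapped.

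Jun, a usual partner of Fos proteins, had the narrowest range of the members relative to its level. It read 184.8, 199.7 and 205.0 CPM in basal medium, 196.0, 181.0 and 207.7 CPM with 1 µM, and 191.6, 210.6 and 209.5 CPM with 10 µM, with the groups overlapping and each P14 value above each P11 value. Junb, which often restrains Jun, read 22.9, 28.8 and 23.0 CPM in basal medium, 27.4, 29.7 and 27.0 CPM with 1 µM, and 20.2, 26.9 and 19.7 CPM with 10 µM. The 3 values at 10 µM lay below the 3 at 1 µM, while both groups overlapped with basal. Jund, the family member least dependent on stimulation, read 85.9, 81.9 and 79.8 CPM in basal medium, 92.2, 85.8 and 79.5 CPM with 1 µM, and 109.4, 111.5 and 79.2 CPM with 10 µM. Its 2 highest values were P11 and P13 at 10 µM, and P14 differed little between the groups.

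Egr1, a zinc finger factor induced by growth factors and activity, read 60.3, 13.04 and 13.17 CPM in basal P11, P13 and P14. With 1 µM it read 82.5, 11.43 and 13.37 CPM, and with 10 µM 57.6, 14.95 and 13.47 CPM. The 3 P11 libraries averaged 66.8 ± 13.7 CPM (SD, n = 3), with P13 at 13.1 ± 1.76 and P14 at 13.3 ± 0.155 CPM. Egr2 read 1.45, 0.973 and 1.27 CPM in basal medium, 1.461, 1.307 and 1.253 CPM with 1 µM, and 1.34, 0.513 and 0.859 CPM with 10 µM, lowest at 10 µM within each P number. Nr4a1 read 25.2, 18.8 and 17.9 CPM in basal medium, 26.2, 21.9 and 18.9 CPM with 1 µM, and 25.1, 22.8 and 20.7 CPM with 10 µM. Its 3 P11 values were above the other 6, and its groups overlapped.

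**Figure D2:**
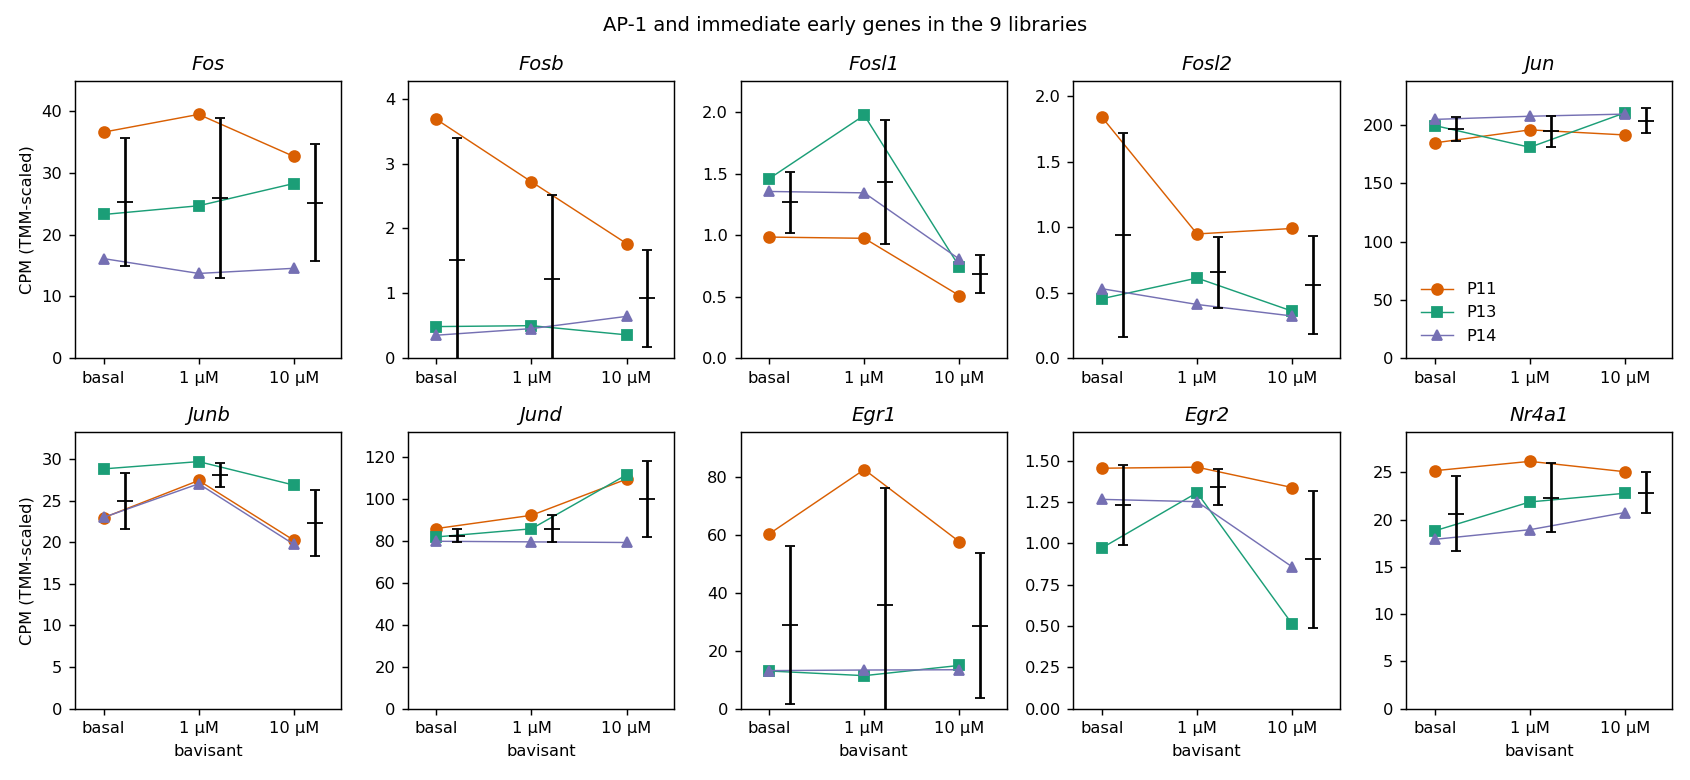
CPM of each of the 10 genes by bavisant dose, with 1 point per library joined by P number and, beside each group, the mean ± SD of its 3 libraries (an SD that runs below 0 is clipped at the axis). The lines of Fos, Fosb, Fosl2, Egr1 and Nr4a1 are highest for P11 at every dose, and Fosl1 is lowest at 10 µM in each line.

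The first comparison asked which of these genes bavisant changed at 10 µM. Without the P number in the fit, edgeR called none of the 10 members and 0% of all genes at an adjusted p under 0.05, while 808 of 15321 genes had an unadjusted p under 0.05 and DESeq2 called 64. With the P number as a block edgeR called 3.96% of all genes, 202 higher and 405 lower (2.64% of all genes lower), and still none of the 10 members, of which 3 had an unadjusted p under 0.05, as did 22.4% of all genes. Fosl1 had the lowest p of the members, with a log2 fold change of -0.88 ± 0.22 (SE) and an edgeR adjusted p of 0.0622, or 0.543 of the basal level, and its values did not overlap with basal. Non-overlap in that direction was found for 1 of 10 members and for 4.61% of all genes. Jund had a blocked log2 fold change of 0.26 ± 0.08 with an edgeR adjusted p of 0.112. DESeq2 with the block gave Jund an adjusted p of 0.0467, so that its call depends on the tool.

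Fos and Egr1 had the smallest differences at 10 µM against basal relative to their errors. The blocked log2 fold change was -0.01 ± 0.11 for Fos and 0.05 ± 0.15 for Egr1, with edgeR adjusted p-values of 0.982 and 0.861. Fosl2 was at -0.69 ± 0.30, Egr2 at -0.49 ± 0.26, Fosb at -0.37 ± 0.34, Junb at -0.16 ± 0.07, Nr4a1 at 0.16 ± 0.07 and Jun at 0.05 ± 0.06, and none of these 6 passed the test. Within the P numbers, Jun was higher in CPM at 10 µM in 3 of 3 (its difference on log2(TPM + 1) was -0.04), and Fosl1, Fosl2, Junb and Egr2 were lower in 3 of 3. Such agreement over 3 P numbers, here and in the other dose comparisons, is not set beside its share over all genes. It describes these members only. The median of the 10 members was -0.09, beside -0.01 over all genes.

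Bavisant at 1 µM gave no call in the edgeR fits of all 9 libraries. The call rate was 0% of all genes against basal both without and with the block. The unadjusted p was under 0.05 for 81 genes without the block and for 582 with it, and DESeq2 called 5 and 8. The largest blocked differences among the members were -0.37 ± 0.29 for Fosl2 and 0.18 ± 0.07 for Junb. Junb and Nr4a1 were higher than basal in 3 of 3 P numbers, and no member had groups apart. The members' median was 0.08, beside 0.00 over all genes (-0.0032 before rounding).

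The 2 doses were compared directly, and the 3 comparisons share libraries in pairs. Without the block edgeR again called 0% of genes between 10 µM and 1 µM, with 717 genes at an unadjusted p under 0.05 and 66 called by DESeq2. With the block it called 4.30% of all genes, of which those lower at 10 µM made up 3% of all genes. Of the 10 members 2 were called, both lower at 10 µM. Fosl1 fell by 1.03 on the log2 scale (SE 0.21, edgeR adjusted p = 0.0372), to 0.488 of its level at 1 µM. Junb fell by 0.34 (SE 0.07, edgeR adjusted p = 0.0393), to 0.788 of its level at 1 µM. Both genes had all 3 values at 10 µM below all 3 at 1 µM, as did 4.36% of all genes in that direction.

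Both calls need the block and depend on which libraries are kept, and the Fosl1 call also depends on the tool. With the block, Fosl1 was not called by DESeq2 (adjusted p = 0.0984) or by limma on log2(TPM + 1) (adjusted p = 0.0598), whereas both called Junb (0.0169 and 0.0267). With each of the 9 libraries left out of the blocked fit in turn, Fosl1 lost its call in all 9 runs (edgeR adjusted p 0.0591 to 0.148), and Junb kept its call in 1 of 9, the run without the 10 µM P13 library (0.0488 to 0.171). Without the P11 libraries the blocked log2 fold changes were -1.07 for Fosl1 and -0.29 for Junb, with edgeR adjusted p-values of 0.108 and 0.186. Egr2 was also lower at 10 µM in 3 of 3 P numbers, at -0.62 ± 0.25 with an edgeR adjusted p of 0.201. The remaining members lay between -0.32 for Fosl2 and 0.21 for Jund. The median of the 10 members was -0.16, beside 0.00 over all genes (-0.0045 before rounding).

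**Figure D3:**
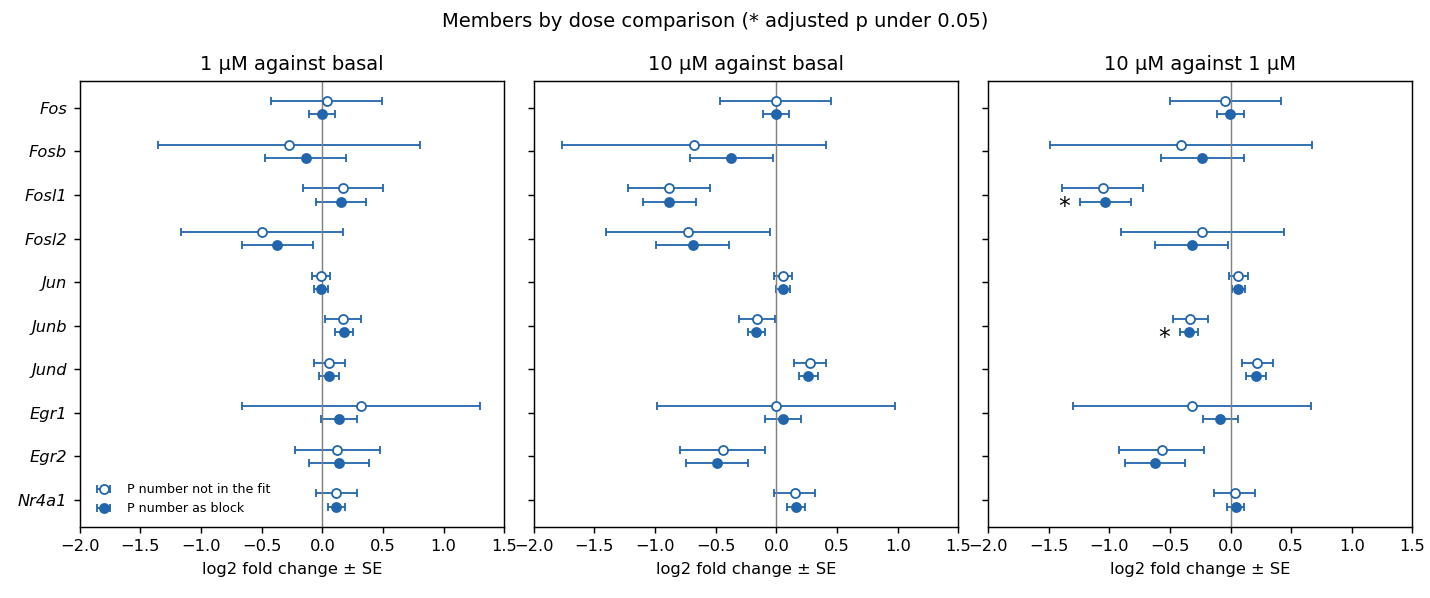
Log2 fold change ± SE of each gene in the 3 dose comparisons from edgeR, with open circles for the fit without the P number and filled circles for the fit with it as a block. Fosl1 and Junb between 10 µM and 1 µM are the only starred values, and the error bars of Fosb, Egr1, Fos and Fosl2 are much shorter with the block.

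The P number separated these genes more than dose did for 7 of the 10 members. Shares of each gene's sum of squares of log2 CPM were computed over the 9 libraries as a description. The P number held 97.9% for Egr1, 95.9% for Fos, 92.2% for Fosb, 79.5% for Nr4a1 and 79.2% for Fosl2, with dose at 0.12%, 0.01%, 0.69%, 12.6% and 11.5%. A P share as large as that of Egr1 was reached by 1.06% of tested genes. Fosl1 was the member with most of its variation on dose, 66.0% against 29.1% for the P number, and 3.71% of tested genes had a dose share as large. Junb had 46.7% on dose and 45.0% on the P number, and Egr2 had 39.6% on each to 3 digits. The medians over all tested genes were 62.2% for the P number and 13.5% for dose, near the members' medians of 62.1% and 13.6%.

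**Figure D4:**
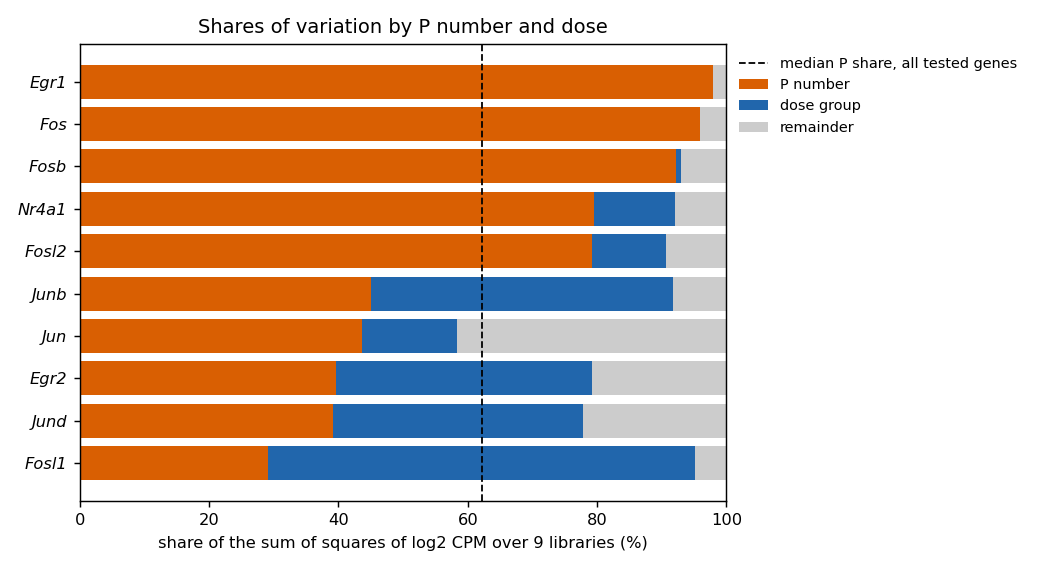
Share of the variation in log2 CPM of each gene held by the P number, by the dose group and by the remainder, in percent, with a dashed line at the median P share of all tested genes. The P share runs from 97.9% for Egr1 to 29.1% for Fosl1, and the dose share is 66.0% for Fosl1.

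The contrast of P11 with the mean of P13 and P14, made within the dose groups, was added because the P11 libraries stood apart. The split was thus picked from these same libraries, and its p-values do not allow for that choice. P13 and P14 can also differ, as for Fos, which averaged 36.2 CPM in P11, 25.4 in P13 and 14.8 in P14. The contrast called 25.2% of all genes higher in P11 and 25.4% lower, so a call is common in it. The 3 P11 libraries share 1 P number, so at that level the contrast is 1 against 2, and its standard errors and p-values measure the spread between dose libraries of these P numbers and not between P numbers in general. Of the 10 members 5 were higher and 1 was lower. Egr1 was higher in P11 by 2.33 ± 0.12 on the log2 scale (edgeR adjusted p = 2.82e-06), or 5.02-fold, and Fosb by 2.49 ± 0.27 (edgeR adjusted p = 1.28e-04), or 5.62-fold. Fosl2 was higher by 1.44 ± 0.24, Fos by 0.90 ± 0.09 and Nr4a1 by 0.34 ± 0.06, with edgeR adjusted p-values of 0.00143, 8.73e-05 and 0.00209. Fosl1 went the other way, at -0.63 ± 0.19 with an edgeR adjusted p of 0.0231, a call lost in DESeq2 (adjusted p = 0.146), without the dose groups in the fit (0.169) and in 6 of 9 runs with 1 library left out. Jun at -0.08, Junb at -0.13, Jund at 0.15 and Egr2 at 0.51 were not called, although Jun and Junb were called lower with plain library totals as the scaling (edgeR adjusted p = 0.0489 and 0.0413) and by limma on log2(TPM + 1) (adjusted p = 0.0352 and 0.0127). All 3 P11 values lay above the other 6 for 6 members, these 5 and Egr2, and for 18.5% of all genes.

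Markers of most cell types moved with P11, in both directions, in a contrast that called 25.2% of all genes higher and 25.4% lower. Of 12 microglia and macrophage markers 9 were called lower in P11 and 0 higher, with sums of 867 to 1023 TPM in P11 and 853 to 1309 TPM in the other libraries. Of 8 neuron markers 5 were lower and 1 was higher (441 to 470 against 476 to 691 TPM), and of 9 oligodendrocyte markers 8 were higher and 0 lower (38883 to 50941 against 33104 to 46369 TPM). Summed endothelial markers were 18.3 to 25.4 TPM in P11 and 2.23 to 10.3 TPM in the other libraries, and mural and fibroblast markers were 373 to 522 against 44.3 to 277 TPM. Schwann cell markers were 73.0 to 79.4 TPM in P11 against 38.9 to 56.9 TPM, with 4 of 6 called higher. Of 11 heat shock genes tested, 7 were higher in P11 and none was lower. None of these marker lists has a gene at 0 in all libraries, and their part in the levels of Egr1, Fos and Fosb was not tested.

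Pairs of members were also compared across libraries, as a description over 9 libraries that share P numbers. Fosb and Egr1 had the closest courses, with Pearson's r of 0.95, followed by Fosb with Fosl2 at 0.89. Once the mean of each P number was subtracted, r was -0.01 for Fosb with Egr1, and the highest value was 0.89 for Fosl1 with Egr2. The median over all 45 pairs was 0.13, and 0.11 within P numbers. For single genes the 2 measures can have opposite signs. Within P numbers, the genes closest to Fos among 11693 compared were Cenpk, a centromere protein gene (r = 0.98), Fbxo6 (0.97), Tcf7l1 (0.96), Aifm1 (0.95) and Idh3g (0.94). Over the 9 libraries without that subtraction, r with Fos was -0.76 for Cenpk, 0.83 for Fbxo6, -0.39 for Tcf7l1, 0.67 for Aifm1 and 0.93 for Idh3g. Those closest to Egr1 within P numbers were Apeh (r = 0.96), Fgd2 (0.95), Bcl2l12 (0.94), Haus7 (0.93) and Zfp362 (0.92), where r without the subtraction was 0.05, -0.93, 0.08, 0.23 and 0.65. These genes were picked as the highest of 11693 values over 9 libraries. The P number held 95.9% of the variation of Fos and 97.9% of that of Egr1, so these r rest on a small remainder. Shared regulation was not tested.

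Genes that act upstream of the members or counter the same signals were followed in the blocked fit. Of 30 upstream kinases and transcription factors tested, 1 was lower at 10 µM than in basal medium and a different 1 was lower than at 1 µM, a share near the 2.64% and 3% of all genes called lower in these comparisons. Mef2c, a MADS box factor that binds immediate early promoters, was lower than basal at 10 µM by -0.49 ± 0.10 (edgeR adjusted p = 0.0386). Elk3, a partner of serum response factor, was lower than at 1 µM by -0.27 ± 0.06 (edgeR adjusted p = 0.0455). None of 20 feedback genes of the MAP kinase pathway was called in any dose comparison by edgeR, with 5 at an unadjusted p under 0.05 for 10 µM against basal, 1 for 1 µM against basal and 3 between the doses. The shares over all genes in that order were 22.4%, 3.8% and 21.2%. Phlda1 and Dusp7, the highest by TPM, were at 0.21 ± 0.09 and 0.08 ± 0.04 between 10 µM and basal.

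Relatives of the members and other immediate early genes gave 1 call by dose. Of the 12 other AP-1 partners and related leucine zipper factors 10 were tested and edgeR called 0, with medians of -0.16 for 10 µM against basal, 0.04 for 1 µM against basal and -0.23 between the doses. In that order, 2, 0 and 5 of them had an unadjusted p under 0.05. The highest of them by TPM were Atf2, at -0.13 ± 0.07 between 10 µM and basal, and Mafg, at -0.07 ± 0.06. Of 6 genes of the Egr and Nr4a families and the Nab corepressors of Egr proteins 5 were tested and edgeR called 0 (2, 0 and 1 at an unadjusted p under 0.05 in the same 3 comparisons), with Nab1 at 0.05 ± 0.06 and Nr4a2 at -0.04 ± 0.10 between 10 µM and basal. Of 28 other immediate early genes, edgeR called 0 at either dose against basal. In the same 3 comparisons 4, 1 and 10 had an unadjusted p under 0.05, beside 22.4%, 3.8% and 21.2% of all genes. Log2 fold changes were positive for 8, 25 and 4 of the 28 in that order. These counts are not set beside their share over all genes, and the last 2 rest on the same 1 µM libraries. The medians of the 28 were -0.131, 0.0927 and -0.161, beside -0.0112, -0.0032 and -0.0045 over all genes. Between the doses 1 of the 28 was called, lower at 10 µM than at 1 µM. Ccn2, a matricellular protein gene, was that one, at -0.997 ± 0.21 with an edgeR adjusted p of 0.0410, from 3.08, 1.95 and 0.911 CPM in P11, P13 and P14 at 1 µM to 1.63, 0.693 and 0.617 CPM at 10 µM. The P11 contrast called 14 of these 28 higher and 4 lower, beside 25.2% and 25.4% of all genes.

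Of 20 genes often given as targets of AP-1 in textbooks, 14 had enough reads to be tested. In the blocked fit 8 of these 14 were called lower at 10 µM than at 1 µM, with 0 higher, where 3% of all genes were called lower. Against basal 3 were lower and 0 higher, where 2.64% of all genes were lower, and at 1 µM 0 were called. The medians were -0.30 for 10 µM against basal, 0.08 for 1 µM against basal and -0.50 between the doses. Without the block 0 of the 14 were called in any dose comparison. The list was chosen with earlier results of these data known, so these counts describe it and are no independent test.

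Mmp9, a matrix metalloproteinase gene, had the largest difference, at -1.75 ± 0.24 between 10 µM and basal (edgeR adjusted p = 0.0164) and -1.26 ± 0.23 between the doses (0.0292). It read 25.3, 7.36 and 8.84 CPM in basal P11, P13 and P14, 19.2, 8.20 and 3.80 CPM at 1 µM, and 8.566, 3.001 and 1.637 CPM at 10 µM. Each P number was lowest at 10 µM, although the P11 value at 10 µM exceeded that of basal P13. Hmox1, the heme oxygenase gene, read 33.5, 43.3 and 45.7 CPM in basal medium, 34.5, 49.9 and 43.3 CPM at 1 µM and 25.2, 33.4 and 30.2 CPM at 10 µM. It fell by 0.46 against basal (SE 0.07, edgeR adjusted p = 0.0164) and by 0.52 between the doses (SE 0.06, edgeR adjusted p = 0.0141), and the 10 µM values lay below all others. Itga5, which codes for an integrin chain that binds fibronectin, was at -0.55 ± 0.09 against basal (edgeR adjusted p = 0.0248) and -0.57 ± 0.09 between the doses (0.0225). Plau, the urokinase gene, was called between the doses, at -0.71 ± 0.14 with an edgeR adjusted p of 0.0327.

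**Figure D5:**
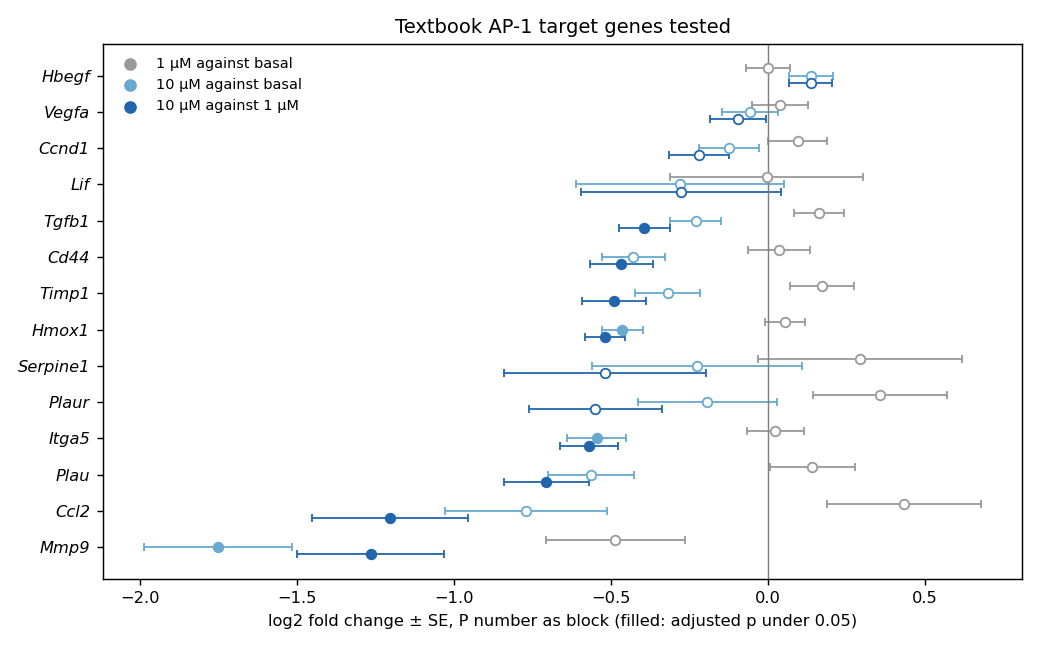
Log2 fold change ± SE of the 14 tested AP-1 target genes in the 3 dose comparisons, from the edgeR fit with the P number as a block, with filled circles for an adjusted p under 0.05. Values at 10 µM lie left of 0 for all but Hbegf, and values at 1 µM against basal lie right of 0 for 12 of the 14, with none filled.

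The counts of called targets depend on which libraries are kept. With 1 library left out in turn, with or without the block, 0 to 5 of the 14 were called lower between the doses. Against basal the range was also 0 to 5. The fit without the block called 0 on all 9 libraries too. The lower ends therefore do not tell a left-out library from the missing block. Between the doses the upper end of 5 is below the 8 called by the blocked fit of all 9 libraries. Without the P11 libraries the blocked fit called 2 and 0 in that order. Markers of other cells moved with the AP-1 targets at 10 µM. Against basal, 3 of 12 microglia and macrophage, 3 of 8 neuron and 2 of 8 astrocyte markers were called lower and none of these higher. Of all genes 2.64% were called lower in that comparison. Between the doses 1 neuron, 1 astrocyte and 1 of 4 endothelial markers were lower, where 3% of all genes were called lower. Summed neuron markers were 441 to 528 TPM at 10 µM, 442 to 642 at 1 µM and 470 to 691 in basal medium, and astrocyte markers 1374 to 1961, 1666 to 2426 and 1797 to 2279 TPM. Of 12 microglia and macrophage markers, 6 were called lower at 10 µM than at 1 µM and 0 higher, and their summed level was 853 to 985 TPM at 10 µM, 1023 to 1309 at 1 µM and 900 to 1262 in basal medium. Of 6 mural and fibroblast markers 3 were lower, with sums of 44.3 to 373 TPM at 10 µM against 71.6 to 522 at 1 µM. Of 9 oligodendrocyte markers 5 were higher at 10 µM than at 1 µM and 6 higher than in basal medium, where 1.31% and 1.32% of all genes were called higher, with sums of 45721 to 50941 TPM at 10 µM, 33104 to 39528 at 1 µM and 34298 to 38883 in basal medium. Their part in the levels of the AP-1 targets, and in those of Fosl1 and Junb, was not tested.

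Heat shock genes were followed as signs of stress. Of 11 heat shock genes, 1 was lower at 10 µM than in basal medium and a different 1 was higher than at 1 µM, where 2.64% of all genes were called lower against basal and 1.31% higher between the doses. Bag3, a co-chaperone gene, was at -0.44 ± 0.09 against basal (edgeR adjusted p = 0.0415). Hspa1b, an inducible Hsp70 gene, was at 1.18 ± 0.18 between the doses (edgeR adjusted p = 0.0206) and at -0.19 ± 0.17 between 10 µM and basal, since its 1 µM values of 1.46, 1.17 and 0.843 CPM were the lowest of the 9. Hspa1b has a near-identical copy in the genome, its reads were not whole numbers, and its level is uncertain for that reason.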

How the data were processed

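RNA was sequenced as paired 75-base reads from stranded mRNA libraries, per the labels' protocols. The submitters' processing notes name FastQC, Trimmomatic, DRAGEN, Picard and the rn6 build; the strand setting of the counting is not given in the sources used here. Deposited tables hold estimated counts per gene, of which about 92.4% to 93.0% are whole, and TPM, scaled by the authors per gene length and library; 399 gene IDs have no name. Estimated counts were rounded, and genes with too few reads were left out (edgeR's filterByExpr, minimum count 10 and total 15). Main tests used edgeR 4.0.16 (TMM, quasi-likelihood F test, all 9 libraries, 1 coefficient per group) in R 4.3.3, with calls at an adjusted p under 0.05. Alternatives were DESeq2 1.42.0, limma 3.58.1 on log2 TPM with a pseudocount of 1 or 0.1 (genes reaching 1 TPM in 3 libraries), other scalings, no filter, libraries left out, and the P number as a replicate block. Depth limits the 4 members with few reads.

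Deviations from the group means correlated at 0.319 to 0.772 in 9 pairs of libraries with the same P number in the titles and at -0.708 to 0.193 in 18 pairs with different ones, so the P numbers were taken to pair the libraries. Replicates of a group differed by far more than sampling noise, with chi-square per degree of freedom of 23.3 to 114. The members and gene lists were chosen with earlier results of these data known, so counts over them are descriptions. The text names all members and, of each other list, up to 4 genes called in a dose comparison, smallest p first, or else the 2 with the highest TPM; for Fos and Egr1, the 5 named genes of at least 2 CPM with the highest correlation within P numbers. The test procedure was checked on simulated counts.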

Additional observations from a re-analysis of the deposited data

How the results depend on the processing

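The P numbers pair the libraries, and the fit with them as a replicate block changed the calls. Without the block the count of genes called was 0 in each dose comparison with DESeq2 size factors, library totals, limma on either TPM scale, no count filter, only the compared groups, or P11 left out. DESeq2 called 64 genes for 10 µM against basal, 5 for 1 µM against basal and 66 for 10 µM against 1 µM. For 10 µM against basal the block called 607, or 947 with DESeq2, 609 with DESeq2 size factors, 834 with library totals, 502 with limma and 10 without the P11 libraries. For 10 µM against 1 µM it called 659, and in the same order 987, 656, 926, 453 and 110. For 1 µM against basal it called 8 with DESeq2 and 0 with the other tools. With 1 library left out, with or without the block, the counts ran from 0 to 581, from 0 to 2 and from 0 to 651 for 10 µM against basal, 1 µM against basal and 10 µM against 1 µM. The lower ends equal the counts without the block on all 9 libraries, so they do not show the part of the left-out library. Among members the block in edgeR changed the calls of Fosl1 and Junb between the doses. With the block Fosl1 lost this call in DESeq2 and limma (adjusted p = 0.0984 and 0.0598), and DESeq2 called Jund at 10 µM against basal (0.26, adjusted p = 0.0467). With library totals and the block Fosl1 was also called against basal (-0.93, adjusted p = 0.0474), and with limma and the block so was Junb (-0.27, adjusted p = 0.0452).

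Some members changed sign, not only those near 0, and neither value called with the block (Fosl1 and Junb between the doses) did. With all 9 libraries, without and with the block, Fosb was -0.681 and -0.371 at 10 µM against basal. Between the doses it was -0.407 and -0.233. At 1 µM against basal Fosl2 was -0.497 and -0.373, and Egr1 was 0.315 and 0.139. Leaving out P11 gave log2 fold changes, without and with the block, of -0.0726 and -0.0728 for Egr1 at 1 µM against basal, 0.206 and 0.207 between the doses, and 0.133 and 0.134 at 10 µM against basal. For Fos these were -0.0320 and -0.0679, 0.174 and 0.157, and 0.142 and 0.0887, and for Fosb 0.194 and 0.191, 0.0757 and 0.0701, and 0.270 and 0.262. Fosl2 at 1 µM against basal was 0.0493 and 0.0321. Egr1 at 10 µM against basal was 0.00160 without a count filter, 0.0535 with the block, and with the block 0.0581 in DESeq2, 0.0530 with its size factors and 0.00727 with library totals. Fos at 1 µM against basal was -0.00548 with the block, -0.00929 with the block in DESeq2, -0.00713 with its size factors, -0.0141 with limma on log2(TPM + 1), with or without the block, and -0.0163 with a pseudocount of 0.1. Fos between the doses was 0.00252 with the block in DESeq2 and 0.000909 with its size factors. On TPM with pseudocounts of 1 and 0.1, Jun was -0.0175 and -0.0177 between the doses and -0.0405 and -0.0408 at 10 µM against basal, and Nr4a1 between the doses was -0.0336 and -0.0352; the block left the first of each pair as it was. Nr4a1 between the doses was -0.0212 with library totals and -0.0139 with the block as well.

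With 1 library left out, with or without the block, some members crossed 0. At 1 µM against basal the ranges were -1.21 to 1.45 for Egr1, -0.0950 to 0.306 for Egr2, -0.397 to 0.399 for Fos, -1.62 to 1.54 for Fosb, -0.130 to 0.386 for Fosl1, -0.859 to 0.410 for Fosl2, -0.0605 to 0.0575 for Jun and -0.0130 to 0.281 for Nr4a1. Between the doses they were -1.33 to 1.21 for Egr1, -0.350 to 0.401 for Fos, -1.28 to 0.949 for Fosb, -0.937 to 0.135 for Fosl2, -0.00382 to 0.122 for Jun and -0.0702 to 0.173 for Nr4a1. At 10 µM against basal they were -1.02 to 1.13 for Egr1, -0.249 to 0.355 for Fos, -1.56 to 1.13 for Fosb and -1.43 to 0.176 for Fosl2. In the 9 blocked runs alone the ranges for Egr1, Fos and Fosb were narrower but still crossed 0. In that order they were -0.111 to 0.303, -0.113 to 0.0802 and -0.417 to 0.340 at 1 µM against basal. Between the doses they were -0.257 to 0.171, -0.132 to 0.115 and -0.650 to 0.201. At 10 µM against basal they were -0.0930 to 0.222, -0.135 to 0.107 and -0.760 to 0.0923. Fosl2 stayed below 0 and Nr4a1 above 0 in the blocked runs. The cause of the crossings was not tested. The counts of called AP-1 targets, an alternative chosen after seeing the data, are given with that result.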
